A study of Mus musculus with 9 samples.

Results

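The oligodendrocyte lineage and myelin genes described here are 37 genes of the 20731 gene symbols counted in the mouse brain, listed by name for their known place in the lineage. They were grouped into 13 genes of myelin sheath proteins, 2 of gap junctions, 3 of lipid and acetate metabolism, 9 of other enzymes, carriers and cytoskeletal proteins, 5 of transcription factors, 2 of precursor cells and 3 of newly formed oligodendrocytes. The sheath group is broad and also holds Hapln2, of the node of Ranvier, and Evi2a, a membrane protein abundant in oligodendrocytes. All 37 had enough reads to be tested, among 14746 genes tested.

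Brain RNA of 9 male C57BL/6J mice, 8 to 10 weeks old, was sequenced on day 2 after cerebral venous sinus thrombosis (CVST), with 3 mice in each group. In every mouse the superior sagittal sinus was closed with ferric chloride. The CVST group had thrombosis alone. Mice of the CVST+Ligation group, and likewise those given 4-PBA, also had their deep cervical lymph nodes, which drain the meningeal lymphatic vessels, tied off. The 4-PBA group additionally received 4-phenylbutyric acid (4-PBA), an inhibitor of endoplasmic reticulum stress, at 100 mg/kg, given 30 min before modelling according to the methods but after ligation according to the series description. The labels name the tissue as brain, whereas that description names cortical tissue. Mice without thrombosis are not analysed here, so that CVST is the reference and no value stands for the uninjured brain.

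Oligodendrocytes wrap axons of the central nervous system in myelin, a stack of lipid-rich membrane held together by a few abundant proteins. They arise from precursor cells that carry the PDGF receptor alpha and the proteoglycan NG2, pass through a short newly formed stage, and are kept in their identity by transcription factors such as SOX10, OLIG2 and MYRF. White matter and deep brain regions hold more of these cells than the cortical grey matter does. In bulk RNA, fewer cells of a type and less RNA per cell cannot be told apart.

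Between 18100739 and 25091498 reads were counted per mouse. Levels are given as CPM, counts scaled to a common library size with edgeR's TMM factors, and 3 counts, the smallest level taken as seen, correspond to 0.114 to 0.163 CPM. The floor covers counting error only. In the data, 3 libraries stood apart, with genes of the cerebellum and brainstem high in CVST+Ligation mouse 2, of peripheral nerve in 4-PBA mouse 2 and of the choroid plexus in 4-PBA mouse 1, and markers of brain regions differed between the groups. The midbrain list summed to 18.7 to 19.6 CPM in the CVST mice and to 168 to 256 CPM in the other mice. The p-values come from edgeR's quasi-likelihood test in 1 model of all libraries and measure the spread between mice. An exact permutation test of 1 gene with groups of this size has a smallest possible two-sided p of 0.1. "Called" means an unadjusted p below 0.05 unless an adjusted p is named, and adjustment is by Benjamini-Hochberg over all 14746 genes.

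Per transcript length, Mbp, which encodes myelin basic protein that seals the inner faces of the myelin membrane, had the highest level of the 37 genes in each of the 9 libraries. Its median was 1600 FPKM (a count scaled by library total and gene length), and it made up 20.6 to 27.6% of the summed FPKM of the group. Mobp, a small myelin-associated protein of the central nervous system, followed with a median of 764 FPKM, and Trf, which encodes the iron carrier transferrin, with 668 FPKM. The ranges of these last genes over the libraries overlapped, at 451 to 1512 and 350 to 1231 FPKM. The share of Mobp in the summed FPKM kept within 10.5 to 14.5%, whereas that of Trf spanned 6.99 to 19.6%. The lowest medians were those of Gpr17, a receptor of newly formed oligodendrocytes, with 7.40 FPKM, of Enpp6, a choline phosphodiesterase of the same stage, with 4.96 FPKM, and of Cspg4, which encodes NG2 on precursor cells, with 3.01 FPKM. The lengths behind the deposited FPKM were multiples of 3 for 74.8% of the 17446 genes where they could be recovered and for 32 of the 37 genes here, so that many of them may be coding lengths.

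**Figure D1:**
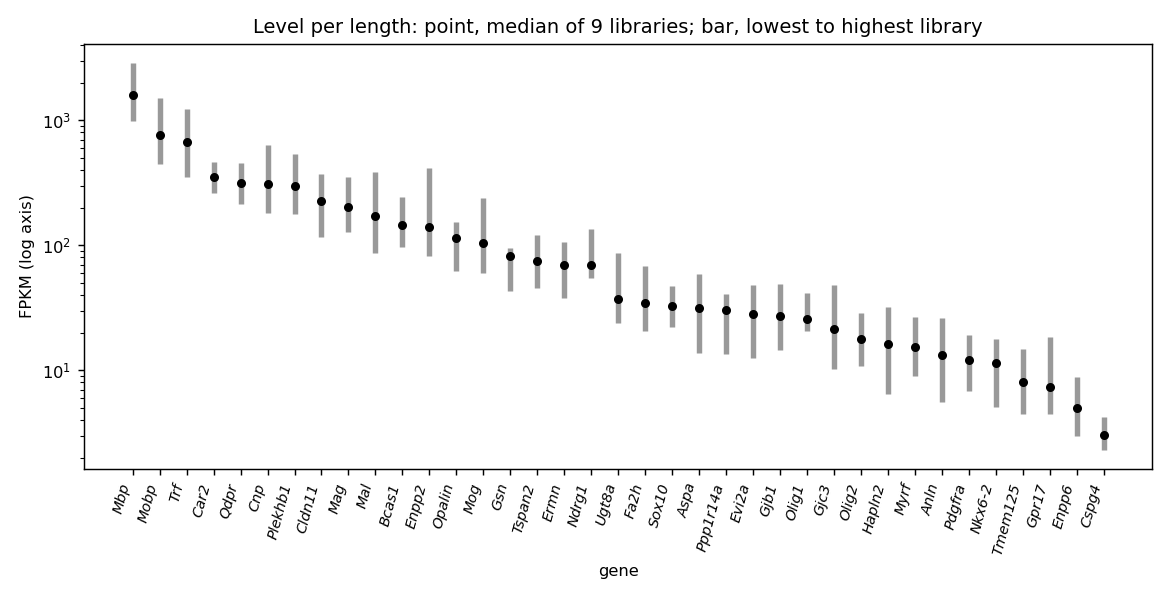
Level per length of the 37 genes in FPKM on a log axis. Points are medians of 9 libraries and bars run from the lowest to the highest library. The genes span from Mbp at a median of 1600 FPKM to Cspg4 at 3.01 FPKM.

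The 37 genes moved largely together from mouse to mouse. Their summed level was 5509, 7253 and 6334 CPM in the CVST mice, 4490, 10111 and 6831 CPM in the CVST+Ligation mice, and 11933, 8359 and 9244 CPM in the 4-PBA mice. All 4-PBA mice lay above all CVST mice, while the CVST+Ligation mice reached from below the lowest CVST mouse to above the 4-PBA mice numbered 2 and 3. These genes took 0.450 to 1.22% of all counted reads. The 4-PBA mouse 1 had the highest level of 25 of the 37 genes and CVST+Ligation mouse 2 of 9 others. The lowest level fell in CVST mouse 1 for 17 genes and in CVST+Ligation mouse 1 for 16. For a typical gene, relative to its mean in the CVST group, the median log2 level was −0.31, 0.75 and 0.29 in the CVST+Ligation mice and 0.98, 0.63 and 0.62 in the 4-PBA mice. The spread was uneven between genes, as the highest library exceeded the lowest by 1.72 times for Car2, a carbonic anhydrase, and by 4.96 times for Enpp2, the enzyme autotaxin.

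**Figure D2:**
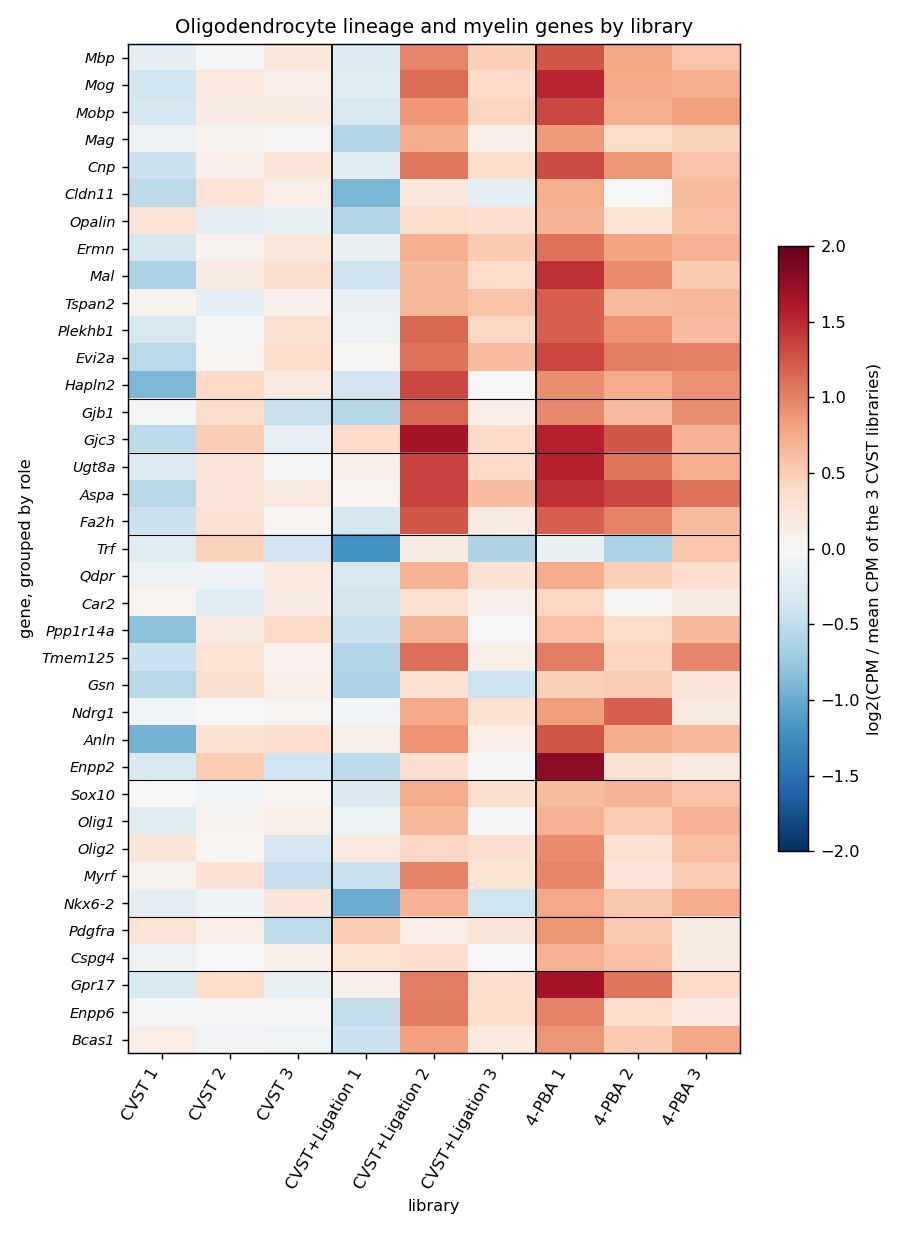
Level of each gene in each library as log2 of its CPM over the mean of the 3 CVST libraries, with genes grouped by role between the horizontal lines. CVST+Ligation mouse 2 and the 4-PBA mice were above the CVST mean for most genes, and CVST+Ligation mouse 1 was below it for many, with a median of −0.31.

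With 4-PBA after ligation, compared with CVST alone, 23 of the 37 genes were higher at an unadjusted p below 0.05 and 0 were lower, against 8.07% of all tested genes called higher and 7.33% called lower. These groups differ by ligation and by the drug together, so what each contributes cannot be told apart in this comparison. Where a level is set against CVST below, "with 4-PBA" names the ligated and treated group. The fitted log2 fold change was above 0 for all 37 genes, from 0.02 for Trf to 1.30 for Aspa, with a median of 0.84 against −0.01 over all genes tested. In 29 of them each 4-PBA mouse lay above each CVST mouse, against 12.3% of all tested genes. None passed the adjusted test, in which edgeR called 0.122% of all genes and the adjusted p of the 37 genes ran from 0.114 to 0.991.

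Sequence before the start site is shown for 3 of the called genes, because SOX10, OLIG2 and MYRF are known to act at promoters and enhancers of myelin genes. The table of RefSeq promoter windows used here, on GRCm38.p6, held 25 of the 37 genes. The 250 bases before each start were searched on both strands for a SOX motif (ACAATG), a further SOX motif (ACAAAG), an E-box (CAGCTG) and the MYRF motifs CTGGCAC and, with a changed base, CTGGTAC. The first SOX motif occurred in 5 of the 25 genes against 12.2% of 27025 genes with a window, the further one in 7 against 18.6%, the E-box in 3 against 14.7%, and the MYRF motifs in 3 against 4.83% and in 1 against 2.11%. A match is a description of letters and not a binding site, and genes with several start sites had more sequence searched. Mobp held 6 copies of the further SOX motif, read as CTTTGT on the strand shown, between 120 and 243 bases before its RefSeq start. Ermn held 1 copy of the first SOX motif, and Mog 1 copy of the last MYRF motif, read as GTACCAG. Of the 12 genes with the smallest p in this comparison, these 3 had a window with such a match outside the gene's own span in GENCODE M21 and could be shown. The sequences run 5′ to 3′ on the strand of the gene, with each match in capitals. Those of Ermn and Mog end just before the RefSeq start, and that of Mobp, 215 bases long, ends earlier, just before the gene begins in GENCODE M21. Ermn is at chr2:58052865-58053114 on the minus strand, Mobp at chr9:120149492-120149706 on the plus strand and Mog at chr17:37023399-37023648 on the minus strand (GRCm38.p6).
Ermn: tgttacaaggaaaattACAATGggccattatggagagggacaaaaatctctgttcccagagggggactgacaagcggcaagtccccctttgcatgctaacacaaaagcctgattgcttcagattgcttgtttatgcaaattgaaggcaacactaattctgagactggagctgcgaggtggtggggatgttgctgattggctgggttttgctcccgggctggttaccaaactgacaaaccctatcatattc
Mobp: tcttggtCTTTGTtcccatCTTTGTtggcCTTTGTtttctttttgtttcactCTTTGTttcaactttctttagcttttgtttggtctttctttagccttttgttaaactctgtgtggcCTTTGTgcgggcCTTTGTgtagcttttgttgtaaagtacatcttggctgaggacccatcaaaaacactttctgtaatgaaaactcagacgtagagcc
Mog: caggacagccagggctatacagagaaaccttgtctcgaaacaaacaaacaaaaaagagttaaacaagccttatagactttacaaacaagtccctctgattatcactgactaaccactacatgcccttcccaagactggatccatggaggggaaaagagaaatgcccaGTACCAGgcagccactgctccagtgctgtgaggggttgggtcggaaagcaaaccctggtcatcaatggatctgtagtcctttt

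The genes of myelin lipids and acetate were all called higher in this comparison, 3 of 3. Aspa encodes aspartoacylase, which frees acetate for lipid synthesis from N-acetylaspartate. It stood at 14.5, 25.3 and 24.3 CPM in the CVST mice, at 22.2, 54.5 and 32.9 CPM with ligation, and at 59.0, 53.6 and 45.4 CPM with 4-PBA. Its 4-PBA level was therefore above the CVST level in every mouse, and CVST+Ligation mouse 2 was within the 4-PBA range. The log2 fold change of Aspa against CVST was 1.30 ± 0.33 (SE), with an unadjusted p of 0.00277 in edgeR's test. Ugt8a makes galactosylceramide, the main glycolipid of myelin, and read 39.6, 56.6 and 46.8 CPM in CVST, 51.4, 122 and 62.3 CPM in CVST+Ligation and 138, 99.9 and 78.5 CPM in 4-PBA mice. The 4-PBA and CVST mice did not overlap, and the log2 fold change was 1.15 ± 0.33 (SE, unadjusted p = 0.00623, edgeR). Fa2h, which hydroxylates the fatty acids of these lipids, had 23.5 to 38.5 CPM in the CVST and 48.9 to 72.7 CPM in the 4-PBA mice.

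Of the 13 myelin sheath genes 9 were called higher with 4-PBA than in CVST, and in 12 the mice of these groups did not overlap. Mbp was at 1218, 1358 and 1604 CPM in the CVST mice, 1169, 2730 and 1937 CPM with ligation, and 3305, 2388 and 2046 CPM with 4-PBA. The CVST+Ligation mice thus reached from just below the lowest CVST mouse into the range of the 4-PBA mice. Against CVST, the 4-PBA log2 fold change of Mbp was 0.89 ± 0.29 (SE, unadjusted p = 0.0129, edgeR).

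Mobp, whose upstream sequence with the repeated SOX motif is printed above, read 254, 354 and 354 CPM in CVST, 257, 584 and 429.9 CPM in CVST+Ligation and 813, 529.8 and 564 CPM in 4-PBA mice. Its log2 fold change between 4-PBA and CVST was 0.99 ± 0.29 (SE, unadjusted p = 0.00730, edgeR). Mog, a surface protein of the outermost myelin layer, read 45.6, 69.4 and 65.9 CPM in CVST, 51.1, 131 and 79.0 CPM in CVST+Ligation and 173, 102 and 100.3 CPM in 4-PBA mice. For both genes the 4-PBA and CVST mice were apart and 4-PBA mouse 1 was the highest of all. The log2 fold change of Mog was 1.05 ± 0.35 (SE, unadjusted p = 0.0130, edgeR).

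Ermn, an actin-binding protein of mature oligodendrocytes, had 33.0, 43.9 and 47.8 CPM in CVST, 37.5, 67.9 and 59.8 CPM in CVST+Ligation and 88.1, 71.7 and 67.6 CPM in 4-PBA mice (log2 fold change 0.87 ± 0.23 SE, unadjusted p = 0.00422, edgeR). Tspan2, a tetraspanin, was at 39.5, 33.3 and 40.6 CPM, then 34.5, 60.2 and 56.0 CPM, then 86.2, 58.4 and 59.8 CPM in the same order of groups. In both genes the lowest 4-PBA mouse exceeded the highest CVST mouse, while CVST+Ligation mouse 1 was inside the CVST range. The change of Tspan2 between 4-PBA and CVST was 0.85 ± 0.23 on the log2 scale (SE, unadjusted p = 0.00473, edgeR).

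Evi2a, a membrane protein that is abundant in oligodendrocytes, had 9.73, 14.5 and 18.0 CPM in the CVST mice and 35.7, 28.5 and 28.5 CPM in the 4-PBA mice, with 14.4, 29.9 and 21.8 CPM after ligation alone. Its log2 fold change was 1.13 ± 0.30 (SE, unadjusted p = 0.00369, edgeR). The gene lies inside Nf1 on the opposite strand, and strand handling in the counting is not stated, so reads of the 2 genes cannot be told apart with certainty. The same holds for Ermn and Galnt5, Cnp and Dnajc7, Nkx6-2 and Inpp5a, Tspan2 and Tshb, and Gpr17 and Lims2.

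Plekhb1 and Mal were the other sheath genes among the 12 smallest p-values. Plekhb1, a membrane protein with a pleckstrin homology domain, read 133, 163 and 203 CPM in CVST, 155, 367 and 222 CPM in CVST+Ligation and 382, 309 and 256 CPM in 4-PBA mice, a log2 fold change of 0.92 ± 0.30 (SE, unadjusted p = 0.0124, edgeR). Mal, a raft-associated proteolipid, read 40.7, 70.2 and 79.1 CPM, 47.7, 99.0 and 81.3 CPM, and 174, 122 and 91.2 CPM in these groups. The 4-PBA mice were the highest as a group for both genes, apart from CVST+Ligation mouse 2, which was within their range. The log2 fold change of Mal between 4-PBA and CVST was 1.03 ± 0.34 (SE, unadjusted p = 0.0134, edgeR). The sheath genes not called were Mag, an adhesion molecule facing the axon, Cldn11, the tight junction protein of myelin, Opalin, a membrane glycoprotein, and Hapln2, a matrix link protein of the node of Ranvier. Cldn11 was the only one of the 13 whose 4-PBA and CVST mice overlapped, with 138 to 225 against 95.3 to 164 CPM.

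**Figure D3:**
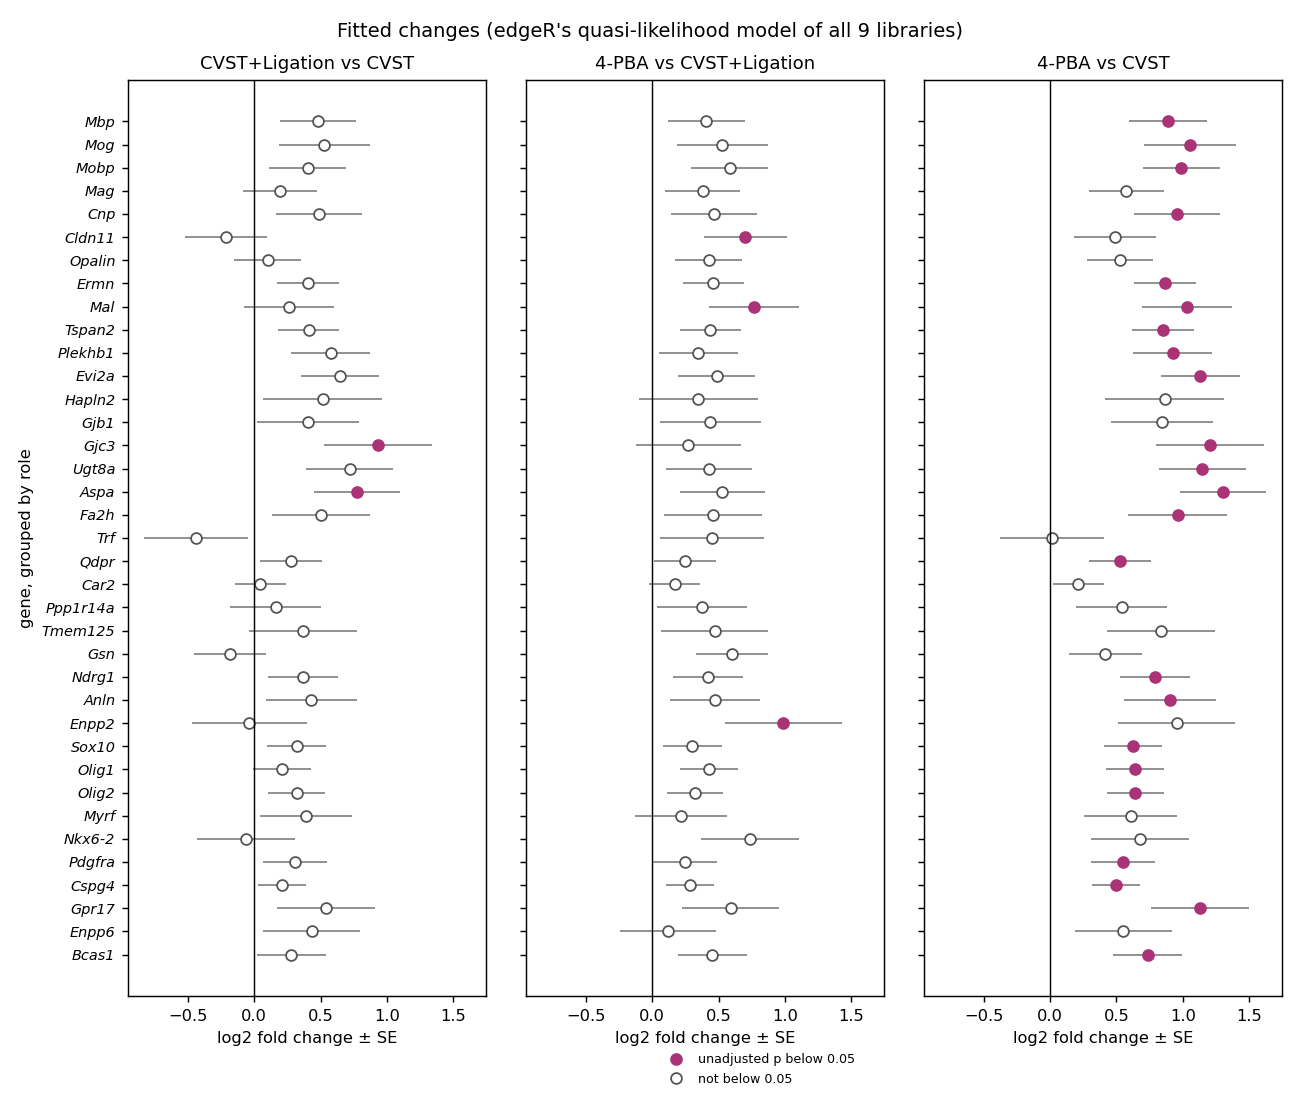
Fitted log2 fold change with its SE for each gene in the 3 comparisons, with filled points for an unadjusted p below 0.05. All 37 points lie above 0 in both comparisons of 4-PBA, and 32 of 37 do so between CVST+Ligation and CVST.

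Among the transcription factors 3 of 5 were called higher with 4-PBA than in CVST. Sox10, needed for the whole lineage, was tight within both groups, at 37.9 ± 1.42 CPM in CVST and 58.4 ± 2.21 CPM in 4-PBA mice (SD, n = 3), whereas its CVST+Ligation mice read 31.2, 63.8 and 47.1 CPM. Olig2, which specifies the lineage, had 16.7, 14.4 and 11.1 CPM in CVST, 16.1, 18.8 and 17.8 CPM in CVST+Ligation and 27.1, 17.3 and 21.4 CPM in 4-PBA mice. The 4-PBA mice exceeded the CVST mice narrowly, and the log2 fold change was 0.64 ± 0.21 (SE, unadjusted p = 0.0139, edgeR). Olig1, its neighbour on chromosome 16, was at 16.5 to 20.8 CPM in CVST and 27.4 to 31.1 CPM in 4-PBA mice. Myrf, the factor that switches on myelin genes, and Nkx6-2, a homeobox factor of the lineage, were not called. Myrf ranged over 32.1 to 54.1 CPM in CVST and 52.5 to 87.2 CPM in 4-PBA mice.

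Of the 5 genes of earlier stages 4 were called higher with 4-PBA than in CVST, among them both precursor genes. Pdgfra, the growth factor receptor of precursors, read 41.8, 38.3 and 24.4 CPM in CVST, 49.7, 38.2 and 41.2 CPM in CVST+Ligation and 64.3, 49.9 and 39.1 CPM in 4-PBA mice, so that these groups overlapped. Cspg4 read 16.6 to 19.4 CPM in CVST and 20.1 to 29.1 CPM in 4-PBA mice, with no overlap. Of the newly formed stage, Gpr17 was called and stood at 4.72, 7.54 and 5.26 CPM in CVST, 6.24, 11.9 and 7.34 CPM in CVST+Ligation and 18.6, 12.2 and 7.62 CPM in 4-PBA mice. The 4-PBA mouse 3 was only just above the highest CVST mouse. The log2 fold change of Gpr17 was 1.13 ± 0.37 (SE, unadjusted p = 0.0130, edgeR). Bcas1, a marker of oligodendrocytes at the onset of myelination, was called with 234 to 272 CPM in CVST and 356 to 457 CPM in 4-PBA mice, and Enpp6 was not. The summed level of the sheath genes was 42.8 to 76.6 times that of Pdgfra and Cspg4 in the CVST, 33.5 to 91.5 times in the CVST+Ligation and 63.2 to 75.7 times in the 4-PBA mice, so that this ratio overlapped between all groups.

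The remaining enzymes, carriers and cytoskeletal genes had the lowest share of calls among the 7 roles, 3 of 9, namely Qdpr, which regenerates tetrahydrobiopterin, Ndrg1, a stress-responsive protein found in myelinating cells, and Anln, the septin-binding protein anillin. The fourth without overlap between 4-PBA and CVST was Tmem125, a membrane protein. Of Gjb1 and Gjc3, the connexins of oligodendrocyte gap junctions, Gjc3 was called and both groups of mice were apart for each. Trf did not follow the group, with 1458, 2324 and 1303 CPM in CVST, 743, 1897 and 1117 CPM in CVST+Ligation and 1547, 1089.9 and 2500.4 CPM in 4-PBA mice. Car2 overlapped as well, at 223 to 294 CPM in CVST and 269 to 352 CPM in 4-PBA mice.

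**Figure D4:**
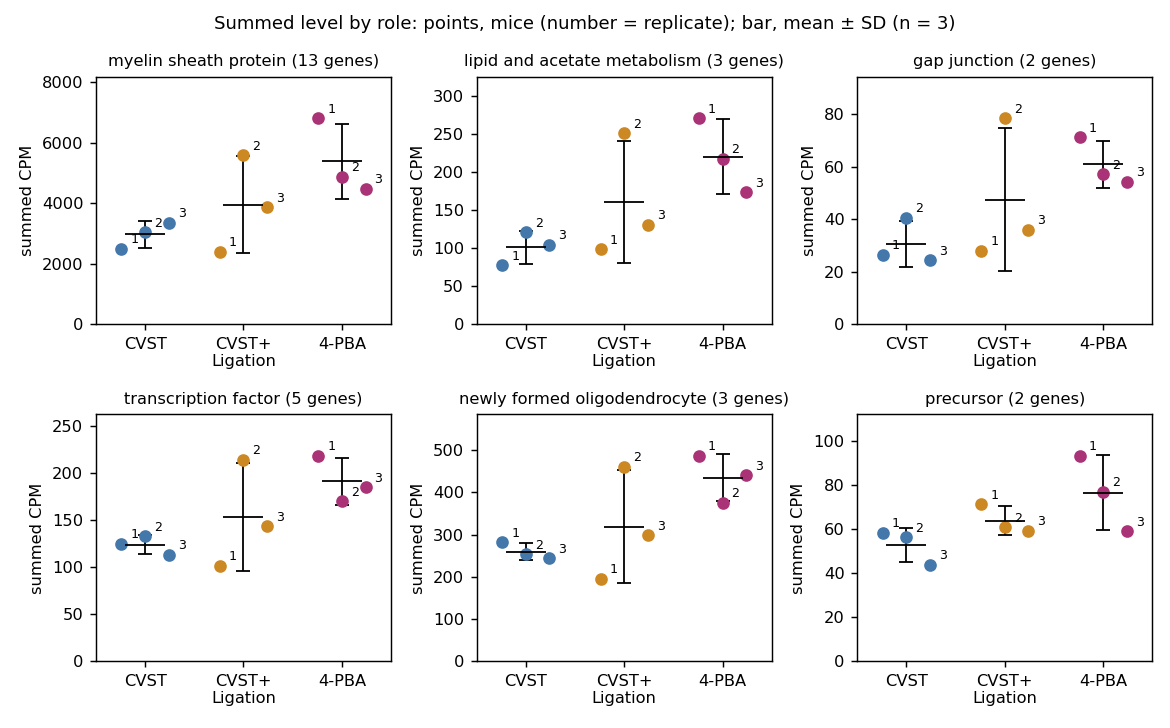
Summed CPM of the genes of 6 roles in each mouse, with the mean and SD of each group (n = 3) and the replicate number beside each point. The 4-PBA and CVST mice do not overlap in any of the 6, whereas the sum of the 9 other enzymes, carriers and cytoskeletal genes, not drawn, overlapped at 2591 to 3983 against 2441 to 3603 CPM, and the CVST+Ligation mice spread widely except for the precursor genes, at 59.3 to 71.4 CPM.

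The call count between 4-PBA and CVST depended on single mice. It was 10 of 37 without 4-PBA mouse 1 (5.94% of all genes called higher), 17 without CVST mouse 1 (6.50%), 18 without CVST mouse 3 (7.66%) and 19 without 4-PBA mouse 2 (5.58%). The median log2 fold change over the 37 genes stayed between 0.67 and 0.91 whichever CVST or 4-PBA mouse was left out. The fold change of Trf went below 0 without CVST mouse 1, CVST mouse 3 or 4-PBA mouse 3, to −0.07, −0.16 and −0.36, and those of the other 36 genes remained above 0. Calls in each of the 16 alternative analyses were made for 7 of these 12 genes, namely Aspa, Evi2a, Ermn, Tspan2, Ugt8a, Mobp and Plekhb1, and Mbp, Mog, Gpr17, Mal and Olig2 missed the threshold without 4-PBA mouse 1, Olig2 also without CVST mouse 3.

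The comparison of CVST+Ligation with CVST, which bears on lymphatic drainage, gave 2 of 37 genes called higher and 0 lower, against 5.47% of all genes called higher and 4.18% called lower. None passed the adjusted test, which called 0.0203% of all genes. These were Aspa, with a log2 fold change of 0.78 ± 0.32 (SE, unadjusted p = 0.0385, edgeR), and Gjc3, with 0.93 ± 0.40 (SE, unadjusted p = 0.0452, edgeR). Gjc3 read 8.46, 17.2 and 10.8 CPM in CVST, 15.8, 38.0 and 15.9 CPM in CVST+Ligation and 35.8, 28.8 and 19.6 CPM in 4-PBA mice. Ugt8a came next, at 0.72 ± 0.33 (SE, unadjusted p = 0.0533, edgeR). The median over the 37 genes was 0.37 on the log2 scale, and the mice of the groups overlapped for each of the 37, while they did not for 13.8% of all genes. Only the sum of the 2 precursor genes was apart, at 43.8 to 58.4 CPM in CVST and 59.3 to 71.4 CPM in CVST+Ligation mice. The genes with a fold change below 0 were Cldn11, Trf, Gsn, which encodes the actin-severing gelsolin, Enpp2 and Nkx6-2, and none of them was called.

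CVST+Ligation mice 1 and 2 pulled these values in opposite directions. Without mouse 1 the call count went from 2 to 16, against 5.35% of all genes called higher, with a median of 0.56. Without mouse 2 the median was 0.02, none was called higher, and 2, Nkx6-2 and Trf, were called lower, against 3.42% of all genes, and 12 genes had a fold change of the opposite sign. In that analysis Aspa and Gjc3 had unadjusted p-values of 0.207 and 0.278 in edgeR's test. Without CVST mouse 1 none was called higher, against 4.93% of all genes, and without CVST mouse 3 only Evi2a was, against 5.15%.

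Between 4-PBA and CVST+Ligation, the comparison of treated with untreated mice after ligation, 3 of 37 genes were called higher and 0 lower, against 1.81% of all genes called higher and 1.42% called lower. None passed the adjusted test, nor did any other gene, although 476 genes had an unadjusted p below 0.05 and DESeq2 called 22 genes after adjustment, none of these 37. All 37 fold changes were above 0, with a median of 0.44 against −0.02 over all genes, and the mice overlapped for each of the 37, against 7.73% of all genes without overlap. Both comparisons of 4-PBA use the same treated mice, so that their values are not independent. The called genes were Mal at 0.77 ± 0.34 (SE, unadjusted p = 0.0481, edgeR), Cldn11 at 0.70 ± 0.31 (SE, unadjusted p = 0.0498, edgeR) and Enpp2 at 0.99 ± 0.44 (SE, unadjusted p = 0.0496, edgeR). Cldn11 read 72.2, 159.6 and 121 CPM with ligation alone and 225, 138 and 210.2 CPM with 4-PBA.

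Here too CVST+Ligation mouse 2 decided the count. Without it 28 of 37 genes were called higher, against 5.37% of all genes, with a median of 0.79, and none was called after adjustment. None was called without CVST+Ligation mouse 1, without CVST+Ligation mouse 3 or without 4-PBA mouse 1, where 1.1, 1.29 and 2.3% of all genes were called higher. Enpp2 read 249, 452 and 349 CPM with ligation alone and 1234, 443 and 406 CPM with 4-PBA. Its high value was that of 4-PBA mouse 1 alone, and without that mouse its log2 fold change was 0.30 (unadjusted p = 0.372, edgeR).

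Lists of other genes of the same cells were counted in the same way. For these and the lists below, the shares of all tested genes called higher and lower were 8.07 and 7.33% between 4-PBA and CVST. They were 5.47 and 4.18% between CVST+Ligation and CVST, and 1.81 and 1.42% between 4-PBA and CVST+Ligation. Some genes belong to several lists and are counted in each. Among them are Cers2 and Elovl1 (mature cells and lipid synthesis) and Tcf7l2 (precursors, regulators and thalamus). Of 42 other genes of mature oligodendrocytes, 18 were called higher and 0 lower between 4-PBA and CVST, with a median log2 fold change of 0.61. In the other comparisons 3 of these 42 were called higher each time, against 5.47% of all genes with ligation and 1.81% between 4-PBA and CVST+Ligation. Of 29 other genes of precursors and committed cells, 5 were called higher with ligation and 7 with 4-PBA against CVST, and 1 was called lower between 4-PBA and CVST+Ligation. Lhfpl3, a membrane protein of precursors, read 3.41 to 5.97 CPM in CVST and 9.13 to 11.3 CPM in CVST+Ligation mice.

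Of 36 regulators of oligodendrocyte differentiation, 7 were called higher and 2 lower between 4-PBA and CVST, 3 higher and 1 lower between CVST+Ligation and CVST, and 1 higher between 4-PBA and CVST+Ligation. Tcf7l2, an effector of WNT signalling in differentiating oligodendrocytes that thalamic neurons also express, had 1.90 to 3.36 CPM in CVST and 31.1 to 74.6 CPM in CVST+Ligation mice, and was the only gene of these lists with an adjusted p below 0.05, at 0.0318 in edgeR's test of 4-PBA against CVST. Erbb3, a neuregulin receptor, had 10.1, 17.1 and 10.1 CPM in CVST mice and a log2 fold change of 1.25 ± 0.35 with 4-PBA (SE, unadjusted p = 0.00501, edgeR). Among 20 enzymes of myelin lipid synthesis, 5 were called higher between 4-PBA and CVST, with Scd2, a fatty acid desaturase, Cers2, a ceramide synthase of very long chains, and Elovl1, an elongase, at log2 fold changes of 0.81, 0.60 and 0.63. Of these 20, 1 was called between CVST+Ligation and CVST and 0 between 4-PBA and CVST+Ligation. Of 14 genes that mark oligodendrocytes in disease, 2 were called lower with ligation and 1 with 4-PBA against CVST, and 1 was called higher between 4-PBA and CVST+Ligation. Sgk1, a kinase induced by glucocorticoids, was lower in both against CVST, with log2 fold changes of −0.60 and −0.64.

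Markers of brain regions and other tissues differed between the libraries as well, and their part in these results was not tested. The summed midbrain genes lay at 18.7 to 19.6 CPM in CVST, 168 to 256 CPM in CVST+Ligation and 221 to 226 CPM in 4-PBA mice, and 11 of 11 tested were called higher with ligation and 9 with 4-PBA. The thalamic genes lay at 84.6 to 129, 249 to 614 and 441 to 836 CPM, and 8 of 13 were called higher with ligation and 12 with 4-PBA against CVST, and 8 between 4-PBA and CVST+Ligation. Cortical genes, which the named tissue should hold, lay at 793 to 1367, 479.7 to 769.9 and 443 to 529.8 CPM, with 5 of 14 called lower with ligation and 8 with 4-PBA. Striatal genes lay at 1126 to 2123, 275 to 586 and 307 to 1473 CPM, with 13 of 13 called lower with ligation and 3 with 4-PBA. Hypothalamic genes lay at 9.40 to 48.3, 21.8 to 62.8 and 314 to 594 CPM, with 7 of 9 called higher with 4-PBA in both of its comparisons. Against CVST, 3 of 12 astrocyte genes were called higher with ligation and 2 with 4-PBA, and 6 and 5 of 12 microglia genes were called lower. Of 11 tested fibroblast genes all had a fold change above 0 in both comparisons with CVST, with medians of 0.78 and 1.03 and 0 and 2 called higher, and 1 was called higher between 4-PBA and CVST+Ligation. Red blood cell genes were called higher with ligation for 2 of 5, and for 0 in the comparisons of 4-PBA. None of 12 endothelial and 10 pericyte genes was called in any comparison. Between 4-PBA and CVST+Ligation, 2 striatal genes were called higher, and 5 cerebellar, 3 cortical, 2 midbrain, 2 brainstem and 2 neuron genes lower. The 15 neuron genes summed to 8428 to 9696 CPM in CVST, 7434 to 8641 CPM in CVST+Ligation and 6429 to 8334 CPM in 4-PBA mice, so that each 4-PBA mouse lay below each CVST mouse, and 3 were called lower and 2 higher between these groups. Among them the pan-neuronal genes Rbfox3 and Snap25 had log2 fold changes of −0.82 and −0.73, and Slc17a6, a glutamate transporter of subcortical neurons, of 2.65. In CVST+Ligation mice 1, 2 and 3, the 37 genes summed to 4490, 10111 and 6831 CPM and the thalamic genes to 249, 614 and 383 CPM. The midbrain genes summed to 202, 256 and 168 CPM in these mice and the cortical genes to 769.9, 479.7 and 749 CPM. Whether these sums are linked was not tested.

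Single libraries stood apart. CVST+Ligation mouse 2, with the highest summed level of its group, held 211 CPM of Gabra6 and 104 CPM of Cbln3, genes of cerebellar granule cells. Gabra6 was at 0 in the CVST and 4-PBA mice and in CVST+Ligation mouse 1, and at 5.23 CPM in mouse 3. The 13 cerebellar genes summed to 3957 CPM there and to 541 to 1330 CPM in the other libraries, and 8 of 11 tested were called higher between CVST+Ligation and CVST. The same library held 136 CPM of Tph2, an enzyme of serotonin neurons of the brainstem, and 28.7 CPM of Slc6a5, a glycine transporter, which were at most 1.98 and 1.03 CPM elsewhere. The 15 brainstem and spinal neuron genes summed to 1031 CPM in it, to 1040.0 CPM in 4-PBA mouse 2 and to 199 to 416 CPM in the others, and 4 of 8 tested were called higher between CVST+Ligation and CVST and 2 between 4-PBA and CVST. The 4-PBA mouse 2 held 265 CPM of Prx, a gene of myelinating Schwann cells in peripheral nerve, which was at most 4.44 CPM elsewhere. Its Schwann cell genes summed to 1591 CPM, against 91.2 to 129 CPM in the others. Of 10 tested, 5 were called higher between 4-PBA and CVST and 4 between 4-PBA and CVST+Ligation, and 1 was called lower with ligation against CVST. Schwann cells also express several of the 37 genes, among them Mbp, Mag, Cnp and Sox10. The 4-PBA mouse 1, the highest for 25 of the 37 genes, held 3013 CPM of Ttr and 53.2 CPM of Kl, and its choroid plexus genes summed to 3201 CPM, against 27.9 to 995 CPM in the others, with 5 of 14 called higher against CVST and 7 against CVST+Ligation. The choroid plexus also makes transferrin and autotaxin. Leaving out CVST+Ligation mouse 2 and 4-PBA mouse 2 together, an analysis added after the values were seen, gave 30 of 37 genes called higher between 4-PBA and CVST (7.37% of all genes), 26 between 4-PBA and CVST+Ligation (3.36%) and 0 higher and 2 lower between CVST+Ligation and CVST (4.07 and 3.01%). In summed level of the 37 genes, these mice were the highest of CVST+Ligation and the lowest of 4-PBA. Leaving them out therefore widens the difference between these groups by the choice itself. The 4-PBA mouse 1, which also stood apart, was kept. Without that mouse alone, 10 genes were called higher against CVST (5.94%) and 0 against CVST+Ligation (2.3%).

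**Figure D5:**
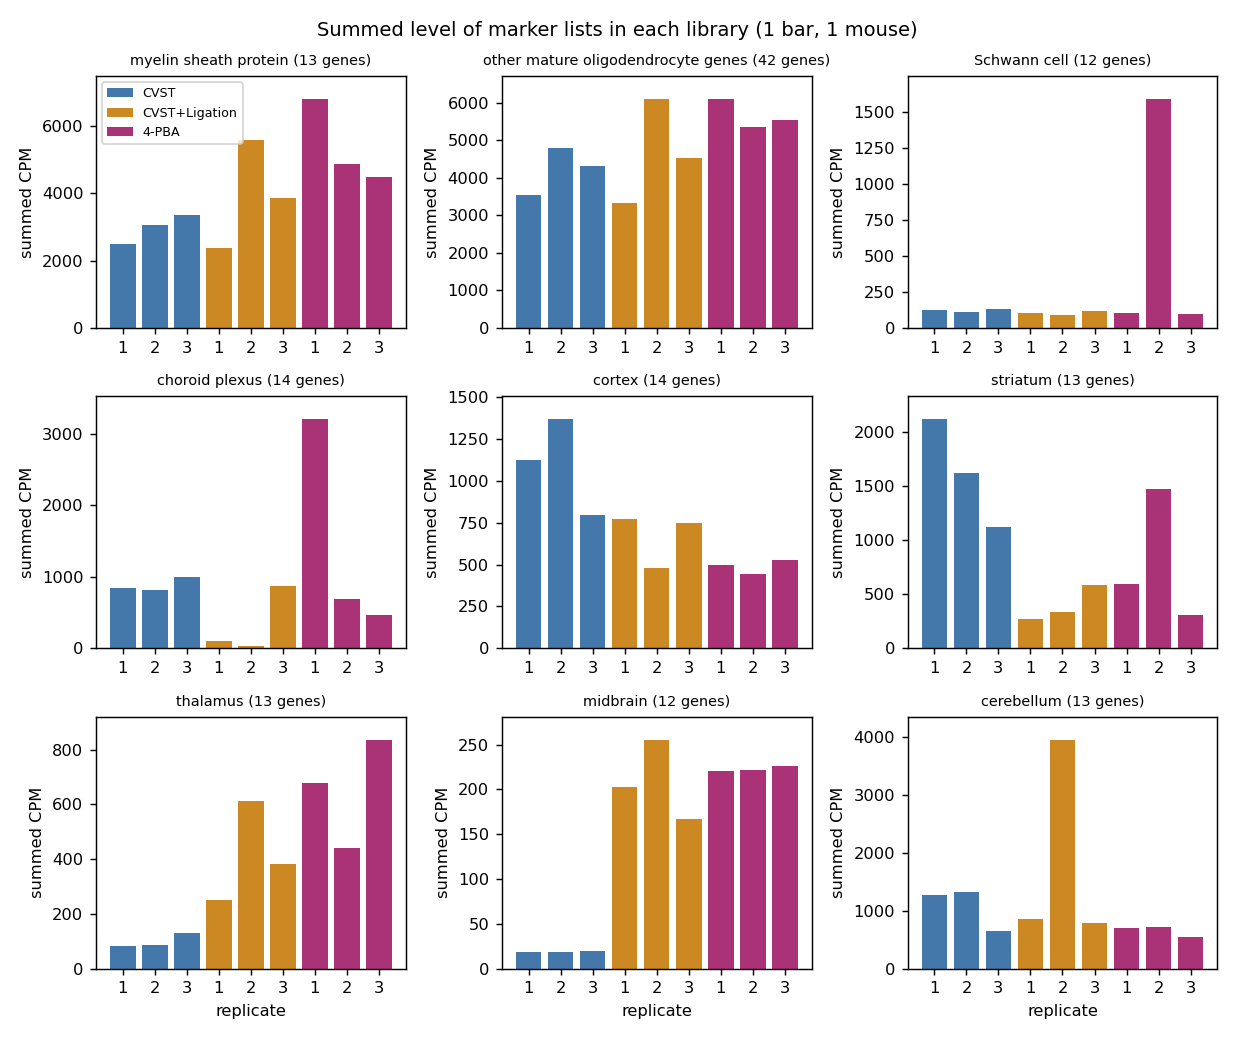
Summed CPM of marker lists in each library, 1 bar per mouse, beside the 13 sheath genes. The midbrain list is near 19 CPM in the CVST mice and at 168 to 256 CPM in the others, and the cerebellar, Schwann cell and choroid plexus lists each peak in 1 library.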

How the data were processed

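Groups were taken from the sample names in the labels. Per the labels and the methods, the authors used fastp for read filtering, HISAT2 in orientation mode for alignment to mm10 (GRCm38), StringTie for assembly and RSEM for quantification. The versions, the annotation and the program that counted the reads are not given in the sources used here. The authors deposited whole-number counts for 20731 gene symbols without normalization, and a matrix which the methods call TPM. Each value above 0 of this deposited matrix equals the count divided by the library total and 1 whole-number length per gene, so the values are FPKM.

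The count table was tested with edgeR 4.0.16 (R 4.3.3). TMM factors were used, filterByExpr with the groups kept 14746 genes, and a quasi-likelihood model of 3 groups without covariates was fitted to the 9 libraries. P-values were adjusted by Benjamini-Hochberg over all genes tested. SE is the absolute log2 fold change divided by the square root of F. The common biological coefficient of variation was 0.287. Libraries of a group differed beyond sampling noise, with a chi-square of at least 24.2 per degree of freedom. The genes and lists were chosen with earlier results of these data known. Fold changes are given for the called genes, at most the 12 with the smallest p, or for the 3 smallest. Alternatives were DESeq2 1.42.0, edgeR with the size factors of DESeq2 or with total counts, other count filters (at least 1 count, or at least 10 in every library), only the 2 groups compared, the replicate number as a block, and limma 3.58.1 on log2(FPKM + pseudocount) with a pseudocount of 1 or 0.1. Every library was also left out in turn, for the comparisons that include its group. Limma was foreseen for whatever unit the expression matrix held and was applied to FPKM. The model was tested on simulated counts drawn independently for each gene. These hold no joint shift of whole marker lists, as the libraries here show, so that test does not cover such shifts. Promoter windows were those of RefSeq, gene positions those of GENCODE M21, and plots were drawn with matplotlib 3.10.9.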

Additional observations from a re-analysis of the deposited data

How the results depend on the processing

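The called members given with a fold change and SE, and Ugt8a, kept their sign under each of the 16 alternatives. Over all members, 16 changed sign under some alternative between CVST+Ligation and CVST, 2 (Enpp6 and Myrf) between 4-PBA and CVST+Ligation, and 1 (Trf) between 4-PBA and CVST. Between CVST+Ligation and CVST, the count of 2 called members became 4 with total counts, with DESeq2 or with all genes of at least 1 count, and 0 with only the 2 groups compared, against 6.52, 6.43, 5.24 and 4.31% of all genes called higher. It ranged from 0 to 16 when 1 library was left out, against 4.65 to 6.53% of all genes called higher. Between 4-PBA and CVST+Ligation, the 3 called members became 6 with limma at either pseudocount (2.16 and 2.02% of all genes called higher). They became 26 without CVST+Ligation replicate 2 and 4-PBA replicate 2 (3.36%), and 0 to 28 when 1 library was left out (0.985 to 5.37%). Between 4-PBA and CVST, the 23 called members ranged from 10 to 24 when 1 library was left out (5.58 to 8.32% of all genes called higher). They numbered 30 without CVST+Ligation replicate 2 and 4-PBA replicate 2 (7.37%), an alternative chosen after seeing the data. After adjustment none was called in this comparison, but 6 were with DESeq2 and 2 with only the 2 groups compared. The cause of these shifts was not tested. Over all genes, adjusted calls between 4-PBA and CVST went from 18 to 855 with DESeq2, to 234 with only the 2 groups compared, to 112 with all genes of at least 1 count, to 6 when every library had to hold at least 10 counts, to 87 and 134 with limma, and to 2 to 162 when 1 library was left out. Between CVST+Ligation and CVST, 3 became 264 with DESeq2 and 13 with limma at a pseudocount of 0.1, and 0 to 7 when 1 library was left out. The ratio of the summed level between 4-PBA and CVST was 1.55 in CPM, 1.71 in FPKM and 1.46 without Mbp.

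The labels tie the replicate numbers to no shared litter, batch or day, so the main analysis had no block. Across genes, the deviations of same-numbered libraries from their group means correlated with r between −0.0639 and 0.340, 8 of 9 above 0, and those of differently numbered libraries with r between −0.416 and 0.106, 4 of 18 above 0. Each library correlated best with its own number in 6 of 6 cases between CVST+Ligation and 4-PBA, 5 of 6 between CVST and CVST+Ligation and 2 of 6 between CVST and 4-PBA, a hint from the data and not from the design. The deviations in a group sum to 0 for each gene, so a library cannot correlate positively with every library of another group. The cases also count each pair from both of its ends, so these counts are not independent. With the replicate block, 2, 2 and 24 members were called in the comparisons of CVST+Ligation with CVST, 4-PBA with CVST+Ligation and 4-PBA with CVST, against 7.14, 1.95 and 9.80% of all genes called higher. Between 4-PBA and CVST+Ligation those called with the block were Gsn and Cldn11, so that Mal and Enpp2 lost their call.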
